A study of Homo sapiens with 4 samples.

Results

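The 10 genes described here encode the AP-1 family of dimeric transcription factors: JUN, JUNB and JUND, FOS, FOSB, FOSL1 and FOSL2, and the related JDP2, BATF and BATF3. They were taken by name, through their Ensembl gene IDs, and all 10 were found among the 64252 IDs of the deposited count table. RNA was sequenced from J.gamma1, a human T-cell leukaemia (T-ALL) line derived from Jurkat. It is known to be without PLCG1 protein, the phospholipase that links the T cell receptor to calcium and diacylglycerol. In 2 libraries the cells had received FB23-2, an inhibitor of the RNA demethylase FTO, at 10 µM, and in the other 2 the DMSO vehicle alone, below 0.1%. Both groups were collected after 48 h. The comparison asked which transcripts differ when the inhibitor is present.

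AP-1 proteins carry a basic DNA-contact region next to a leucine zipper, through which they pair before they bind DNA. JUN proteins can pair with each other or with FOS proteins, whereas FOS proteins need a JUN partner. BATF proteins and JDP2 also pair with JUN proteins but lack the strong activation domains of JUN and FOS, and JDP2 is best known as a repressor at AP-1 and cAMP response sites. In T cells, AP-1 joins NFAT at cytokine genes after receptor stimulation, and BATF-JUN pairs join IRF4. Many AP-1 genes are immediate-early genes, induced within minutes through MAP kinases.

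Library totals were 24615359 to 37804516 counts, so that 3 counts stood for 0.0785 to 0.125 CPM, the count scaled to the TMM-adjusted library size. Of 13 T-lineage markers, all were counted in every library, 9 fell and 1 rose (edgeR adjusted p below 0.05). By the same threshold 20.3% of all 18817 tested genes fell and 21.8% rose. The summed level of the T-lineage markers was 1632 and 1708 CPM with FB23-2 and 2166 and 2197 CPM in control. The 3 B-cell markers summed to 39.5 to 46.3 CPM, nearly all CD79A, with MS4A1 at 0 in FB23-2 replicate 1 and control replicate 2. The 5 myeloid markers summed to 1.71 to 2.49 CPM, with MPO at 0 in those same libraries. The 3 natural killer markers summed to 6.39 and 6.72 CPM with FB23-2 and 4.03 and 4.53 CPM in control, with 0 called. The epithelial, stromal and endothelial list of 3, mostly PECAM1, summed to 56.3 and 60.5 CPM with FB23-2 and 111 and 114 CPM in control. The part of these markers in the results below was not tested. PLCG1 RNA was present, with 295 and 291 CPM under FB23-2 and 265 CPM in each control library. In bulk RNA, fewer cells with a transcript and less of it per cell cannot be told apart.

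To show what the promoters of the family hold, stretches of 30 bases are printed around matches to AP-1-related motifs in the 250 bases before the RefSeq start (GRCh38.p14), written on the strand of the gene with the match in capitals. The table held such a stretch for 8 of the 10 genes, JDP2 with 3 starts. The GENCODE gene spans given below begin further upstream for some of them. The distance was 280 bases for JUN, 410 for FOSL2 and 306 for the middle JDP2 start. The JUN, FOSL2 and JDP2 stretches printed here thus lie inside those spans, and the FOS stretch crosses the beginning of its span. JUN carries the letters TGACATCA at base -67 from its start, the element through which JUN protein is known to act on its own gene. JUND carries the full cAMP response element TGACGTCA at base -200. FOS, JDP2, FOSB and FOSL2 carry the shorter core TGACGT at bases -64, -97, -60 and -66.

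JUN, chr1:58784096-58784125, minus strand: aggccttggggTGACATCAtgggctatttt
JUND, chr19:18281804-18281833, minus strand: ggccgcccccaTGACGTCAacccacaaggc
FOS, chr14:75278753-75278782, plus strand: ggttgagcccgTGACGTttacactcattca
JDP2 core, chr14:75427914-75427943, plus strand: ccgtccccctcTGACGTctggagctggcag
JDP2 second match, chr14:75427992-75428021, plus strand: tatatagccggggcTGATGCAAcccgtccc
FOSB, chr19:45467925-45467954, plus strand: caaggggcgggTGACGTaagcaggggggcg
FOSL2, chr2:28392781-28392810, plus strand: gagtctggggtTGACGTgagtgaatccaca

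The second JDP2 match, at base -16 of its middle start, is to TGATGNAA, the element bound by CEBP-ATF pairs. Motifs were searched on both strands, and TGACGT is part of TGACGTCA, so each full element also counts as a core. The full element was found in 1.65% of 35116 promoters of the same length, TGACATCA in 2.37%, TGACGT in 7.1% and TGATGNAA in 3.14%. No match to TGAGTCA (4.2% of promoters), the E-box CACGTG (6.34%) or the CArG box (1.16%) stood in the member stretches. Sequence more than 250 bases before a start was not searched, so the absence of a match does not cover sites further upstream. The core TGACGT was added after the FOS stretch had been read. A match to these letters is a description of the sequence only.

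JUND has a further core, on the opposite strand, at base -87. Its whole stretch is printed because JUND was the most abundant member and holds both sites.

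JUND promoter, chr19:18281623-18281872, minus strand: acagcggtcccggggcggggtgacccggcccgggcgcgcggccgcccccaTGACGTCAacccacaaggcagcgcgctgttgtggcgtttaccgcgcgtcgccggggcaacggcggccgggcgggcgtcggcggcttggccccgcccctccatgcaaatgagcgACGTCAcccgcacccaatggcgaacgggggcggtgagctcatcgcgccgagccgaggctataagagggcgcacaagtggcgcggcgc

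Of the 10 genes, 9 had enough counts to be tested, and 4 of these rose with FB23-2: JUN, JUND, FOS and JDP2. BATF3 fell, and JUNB, FOSB, FOSL2 and BATF did not pass. Across all 18817 tested genes 42.1% passed (edgeR adjusted p below 0.05), 21.8% higher and 20.3% lower, so that a call by itself is common in these data. All 4 that rose did so by at least 2-fold, a size that 3.03% of all tested genes passed with. Without FB23-2 replicate 1, or without control replicate 2, 2 of the 4 were called at 2-fold or more, because the FOS call was lost and JUND stood at a log2 fold change of 0.91 or 1.00 (just below 2-fold). The median log2 fold change, FB23-2 over control, was 0.18 over the 9 tested members and 0.00 over all tested genes. The member median was 0.61 at a minimum count of 50, where 8 members were tested, and 0.35 with offsets for GC content and length. The standard error (SE) of a log2 fold change was calculated from that fold change and the F statistic of its edgeR test. Values with ± below are SE for fold changes and SD over 2 libraries for levels.

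**Figure D1:**
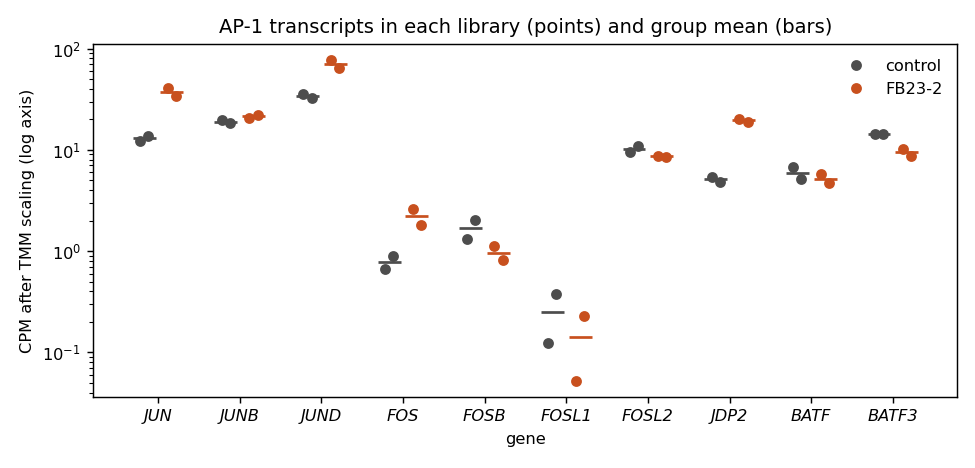
CPM of each AP-1 gene (log axis) in the 2 control and 2 FB23-2 libraries, each point a library and each bar a group mean. JUN, JUND, FOS and JDP2 have both FB23-2 points well above both control points, while FOSL1 is near the counting floor and its groups overlap.

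**Figure D2:**
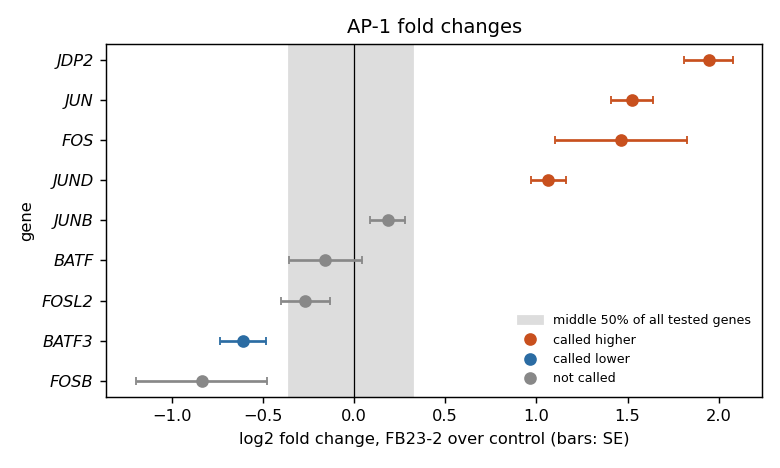
Log2 fold change of the 9 tested members with SE as bars, beside the range that holds the middle 50% of all tested genes (-0.36 to 0.32). JDP2, JUN, FOS and JUND lie to its right, and BATF3 and FOSB to its left.

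The JUN proteins are the partners that FOS proteins need. JUN itself, the founding member and a strong activator (ENSG00000177606, chromosome 1, 58780788 to 58784327, a gene of 1 exon), stood at 40.9 and 34.4 CPM with FB23-2 and 12.2 and 13.8 CPM in control. Both treated libraries were thus above both control libraries. This was a log2 fold change of 1.53 ± 0.12 (edgeR adjusted p = 1.03e-05), or 2.88-fold.

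JUND, the member that resting cells are known to keep at a steady level (ENSG00000130522, chromosome 19, 18279760 to 18281622), stood at 77.1 and 64.9 CPM with FB23-2 and 35.7 and 32.6 CPM in control. The groups did not overlap, and the treated libraries differed from each other by more than the control libraries did. JUND rose by a log2 fold change of 1.07 ± 0.09 (edgeR adjusted p = 3.86e-05).

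JUNB, a weaker activator that can hold JUN in check (ENSG00000171223, chromosome 19, 12791496 to 12793315, also of 1 exon), stood at 20.5 and 22.3 CPM with FB23-2 and 19.5 and 18.2 CPM in control. These ranges lie next to each other without overlap, and JUNB did not pass, with a log2 fold change of 0.18 ± 0.10 (edgeR adjusted p = 0.164). With offsets for GC content and length it passed, at 0.35 (edgeR adjusted p = 0.0186, where the alternatives ran from 0.0186 to 0.494). JUNB shares 14.2% of its exon bases with HOOK2 on the opposite strand, which had a mean of 21.4 CPM with FB23-2 and 19.0 CPM in control, and without a stated strand setting the reads of both cannot be told apart.

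To compare genes, levels were also divided by exon length in kb. This length joins all annotated exons of a gene and can exceed that of the transcript expressed. The orders, sums and shares given per kb depend on it. On this scale JUND had the highest level of the 10 in both groups, 38.1 ± 4.63 CPM per kb with FB23-2 and 18.3 ± 1.17 CPM per kb in control. JUNB came next, at 11.8 ± 0.67 and 10.4 ± 0.49 CPM per kb. JUN was the fifth highest in control, at 3.67 ± 0.31 CPM per kb, below BATF and BATF3. With FB23-2 it was the third, at 10.6 ± 1.30 CPM per kb, and its libraries overlapped those of JUNB. The summed level of the JUN genes was 64.2 and 56.8 CPM per kb with FB23-2 against 33.3 and 31.4 in control, 1.87 times as high. Of that sum JUN made up 18.0% and 17.1% with FB23-2 and 10.4% and 12.4% in control. JUNB made up 17.6% and 21.5% with FB23-2 and 32.2% and 31.9% in control, a share that depends on the levels of JUN and JUND as well as on its own, given above.

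**Figure D3:**
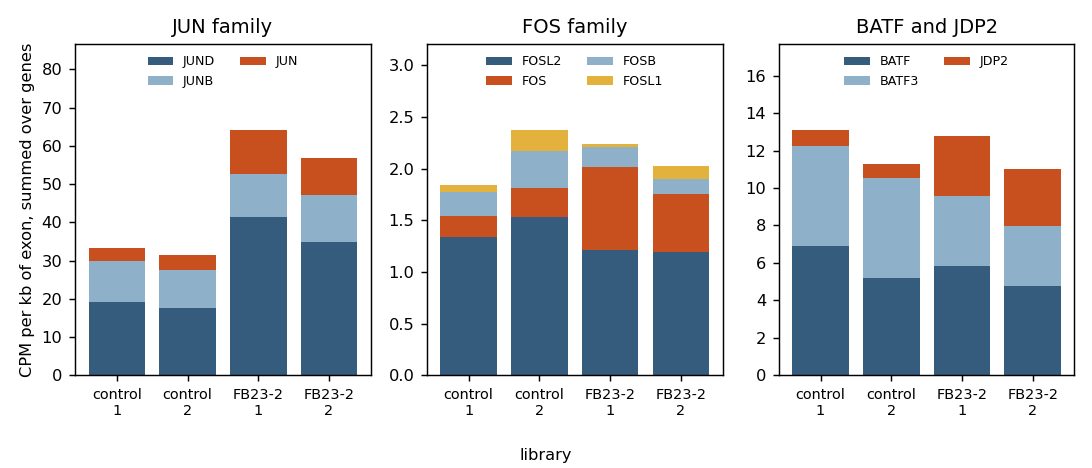
Stacked CPM per kb of exon for the JUN genes, the FOS genes, and BATF, BATF3 and JDP2, in each of the 4 libraries, with each axis starting at 0. The JUN sum is higher in both FB23-2 libraries, whereas in the other panels the sums overlap between groups and the shares of FOS and JDP2 are larger with FB23-2.

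FOS proteins supply the other side of the classic dimer. The RNA of FOS, FOSB and FOSL1 was low in all 4 libraries, while FOSL2 stood higher, at 8.53 to 10.95 CPM. FOS (ENSG00000170345, chromosome 14, 75278774 to 75282230), the prototype immediate-early gene, had 99 and 63 counts with FB23-2 and 16 and 31 counts in control. Scaled, this was 2.59 and 1.82 CPM against 0.664 and 0.900 CPM, with no overlap. FOS rose by a log2 fold change of 1.46 ± 0.36 (edgeR adjusted p = 0.00951). The counts were few, and the FOS call was lost without FB23-2 replicate 1 (log2 fold change 1.16). It was also lost without control replicate 1 (1.28) or control replicate 2 (1.74). Whether the few counts or the missing library ended the call was not tested. Over the alternatives the edgeR or DESeq2 adjusted p ran from 0.00599 to 0.0688 and the log2 fold change from 1.16 to 1.74.

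FOSB, whose short splice form is known to accumulate under repeated stimulation (ENSG00000125740, chromosome 19, 45467995 to 45475179), stood at 1.13 and 0.807 CPM with FB23-2 and 1.33 and 2.03 CPM in control. Both treated values were below both control values, but FOSB did not pass (-0.84 ± 0.36 on the log2 scale, edgeR adjusted p = 0.093). FOSL2, also called FRA2, which lacks the strong activation domain of FOS (ENSG00000075426, chromosome 2, 28392448 to 28417312), stood at 8.66 and 8.53 CPM against 9.55 and 10.95 CPM in control. It did not pass either (-0.27 ± 0.14, edgeR adjusted p = 0.15). FOSL1, or FRA1 (ENSG00000175592, chromosome 11, 65892049 to 65900573), had 2 and 8 counts with FB23-2 and 3 and 13 counts in control. That was too few to be tested in the main comparison, and the groups overlapped.

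Of the 3 FOS genes tested, FOS alone was called, and the summed level of the 4 genes per length overlapped between the groups. It was 2.24 and 2.02 CPM per kb with FB23-2 and 1.84 and 2.37 CPM per kb in control. FOSL2 had the largest part in every library, with 54.0% and 59.0% against 72.3% and 64.4%. FOS took 35.7% and 27.8% of the sum with FB23-2 and 11.1% and 11.7% in control. Set against the JUN genes, the FOS sum was small in all 4 libraries.

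The inhibitory and lymphoid members split. JDP2 (ENSG00000140044, chromosome 14, 75427716 to 75474111), the repressor, stood at 20.2 and 18.9 CPM with FB23-2 and 5.40 and 4.85 CPM in control. Replicates lay close together and the groups far apart, and the log2 fold change of 1.94 ± 0.13 (edgeR adjusted p = 5.28e-06) was the largest of the 9 tested members, or 3.85-fold. A low antisense transcript, JDP2-AS1, which overlaps 0.417% of the JDP2 exon bases, was at 0.523 and 1.24 CPM against 0.291 and 0.203 CPM. It passed narrowly (1.84 ± 0.65, edgeR adjusted p = 0.047, and 0.0198 to 0.265 across alternatives), and the call ended without FB23-2 replicate 2 (0.265) and without control replicate 1 (0.128) or 2 (0.263).

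BATF, which opens chromatin in activated T cells together with IRF4 (ENSG00000156127, chromosome 14, 75522425 to 75547015), stood at 5.71 and 4.67 CPM with FB23-2 and 6.76 and 5.11 CPM in control. The groups overlapped, and BATF did not pass (-0.16 ± 0.20 on the log2 scale, edgeR adjusted p = 0.576). BATF3, best known for its role in cross-presenting dendritic cells (ENSG00000123685, chromosome 1, 212686418 to 212699985), stood at 10.1 and 8.76 CPM with FB23-2 and 14.5 and 14.4 CPM in control. It was the member that fell, by 0.61 on the log2 scale, with an SE of 0.12 (edgeR adjusted p = 0.00359). The summed level of BATF, BATF3 and JDP2 per length was 12.8 and 11.03 CPM per kb with FB23-2 and 13.1 and 11.3 CPM per kb in control. JDP2 went from 6.60% and 6.88% of this sum in control to 25.3% and 27.5% with FB23-2, and BATF3 from 40.7% and 47.0% to 29.2% and 29.3%.

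FOS, JDP2 and BATF lie in that order, on the same strand, within 268 kb of chromosome 14. In a window with 250 kb on either side, chosen after the values were seen, 12 genes were tested, of which 5 were higher and 0 lower, where 21.8% and 20.3% of all tested genes were. Of these 5, 3 were FOS and JDP2, around which the window was drawn, and JDP2-AS1. Among the 8 tested genes other than these and BATF, 2 were higher: NEK9, a mitotic kinase (0.27 ± 0.05), and ERG28, a sterol synthesis scaffold (0.50 ± 0.06). The window held 3 higher genes without either control library, and 2 lower genes with the replicate block. TMED10, between NEK9 and FOS, was at 0.07 ± 0.04 and did not pass. BATF begins 48 kb beyond the end of JDP2 and did not pass, as given above.

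**Figure D4:**
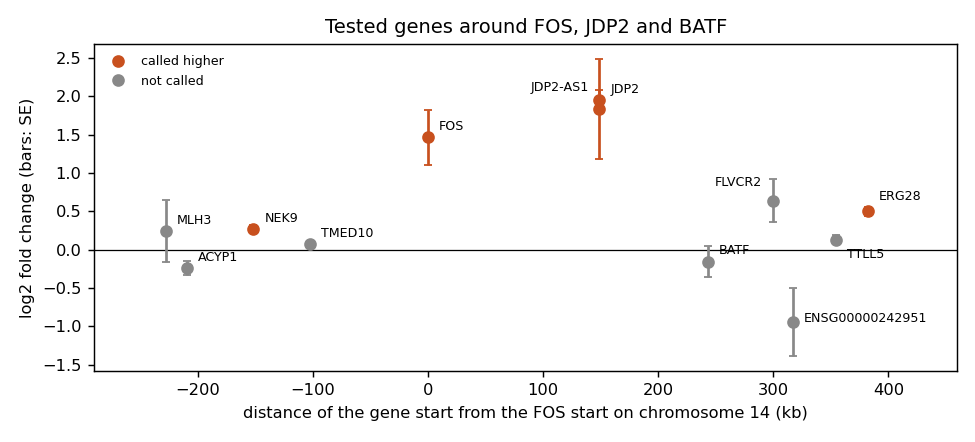
Log2 fold change with SE for the 12 tested genes around FOS, JDP2 and BATF, against the distance of each gene start from the FOS start in kb. FOS, JDP2 and JDP2-AS1 lie above 1 on the log2 scale, and the other genes of the window below it.

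The genes whose levels over the 4 libraries were most like those of JDP2, by Euclidean distance of centred log2 CPM among 11025 genes, were TRIB3, EPAS1, CCPG1, TUBA4A and TREML2. TRIB3, a pseudokinase, was the nearest (distance 0.0381), at 140 and 136 CPM with FB23-2 and 38.5 and 34.0 CPM in control. EPAS1, the hypoxia factor HIF-2 alpha, stood at 12.5 and 10.7 CPM against 3.32 and 2.90 CPM. With 4 libraries in 2 groups, this likeness rests mainly on the size of the group difference.

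RNA of other bZIP proteins, listed as partners of JUN or FOS, was higher in 10 of 19 tested cases and lower in 3. Here and in the lists that follow, a protein or enzyme named stands for its RNA. Protein levels and AP-1 activity were not measured. Across all tested genes 21.8% were higher and 20.3% lower, the shares to set beside the counts of this list and those that follow. The median log2 fold change of the list was 0.34 (list medians below are on the same scale). DDIT3, which encodes CHOP, stood at 40.3 and 40.5 CPM with FB23-2 and 5.77 and 5.93 CPM in control (2.78 ± 0.10, edgeR adjusted p = 3.12e-07). ATF3, an early stress-induced partner of JUN, stood at 28.6 and 28.9 CPM with FB23-2 against 11.7 and 11.8 CPM, a rise of 1.29 ± 0.09 on the log2 scale (edgeR adjusted p = 8.41e-06). BACH2, a repressor at sites of the MAF type that keeps lymphocytes quiescent, rose by less (0.59 ± 0.06). MAFK (-0.68 ± 0.07), NFE2L3 (-0.61 ± 0.07) and ATF4 (-0.39 ± 0.04) fell. MAFF, with 7.64 ± 1.47 CPM against 7.09 ± 0.54 CPM, did not pass. DDIT3 shares 27.2% of its exon bases with MARS1 on the opposite strand, which had a mean of 198 CPM with FB23-2 and 199 CPM in control. MAFK shares 18.1% with TMEM184A, also on the opposite strand (mean 3.67 CPM against 7.27 CPM).

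Factors of other families that bind beside AP-1 went both ways, with 5 of 14 higher and 4 lower, and 3 higher without FB23-2 replicate 2. Their median was 0.05, and 0.11 and 0.09 without control replicates 1 and 2. RUNX3, a factor of mature cytotoxic T cells, rose (0.74 ± 0.09), and so did SMAD3, a TGF-beta effector (0.67 ± 0.07). IRF8, which can replace IRF4 beside BATF, fell from 3.82 and 3.17 CPM in control to 1.02 and 0.836 CPM with FB23-2 (-1.88 ± 0.29, edgeR adjusted p = 7.03e-04). ETS2 (-0.44 ± 0.05) and RUNX1 (-0.41 ± 0.04) fell by less, and SMAD4 (0.06 ± 0.09) and RELA (0.15 ± 0.06) did not pass. SMAD4 was called in 1 and RELA in 4 of the 13 alternatives. IRF4 itself, named after its values were seen, had 17 and 12 counts with FB23-2 and 20 and 6 in control.

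Kinases of the MAP kinase routes to AP-1 were higher in 14 of 31 tested cases and lower in 6 (median 0.13, or 0.07 without control replicate 1). RPS6KA5, or MSK1, which phosphorylates chromatin at immediate-early genes, stood at 56.8 and 64.1 CPM with FB23-2 and 28.7 and 26.7 CPM in control (1.13 ± 0.08). RPS6KA2 (0.70 ± 0.09), MAP3K3 (0.53 ± 0.08) and the ERK kinase gene MAP2K1 (0.52 ± 0.05) also rose. MAP2K6, which encodes an activator of p38, fell from 5.02 and 6.07 to 1.96 and 1.82 CPM (-1.57 ± 0.22), and MAPKAPK3 (-0.89 ± 0.05) and MAPK12 (-0.69 ± 0.09) fell. MAPKAPK2, a close relative of MAPKAPK3, rose (0.43 ± 0.05), and the p38 genes MAPK11 (-0.11 ± 0.13) and MAPK13 (-0.31 ± 0.24) did not pass, all 3 named after their values were seen. MAPK12 shares 29.3% of its exon bases with HDAC10 on the same strand, which did not pass (mean 22.2 CPM against 23.2 CPM). MAPK14, which encodes p38 alpha, was at -0.06 ± 0.05 and did not pass, nor did MAP2K2 (0.04 ± 0.04). The JNK genes MAPK8 (0.36 ± 0.05) and MAPK9 (0.37 ± 0.05) were named after their values were seen, and both rose.

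Phosphatases that switch MAP kinases off rose in 4 of 9 tested cases (median 0.61). DUSP10, which acts on JNK and p38, stood at 19.5 and 19.3 CPM with FB23-2 and 5.69 and 6.48 CPM in control (1.66 ± 0.13, edgeR adjusted p = 9.57e-06). DUSP5, a nuclear ERK phosphatase, rose as well (1.26 ± 0.20). DUSP2 was the 1 that fell (-1.15 ± 0.13), or 2 without FB23-2 replicate 1. DUSP1, the immediate-early phosphatase, stood at 12.6 ± 0.75 CPM against 14.3 ± 0.91 CPM and did not pass, and neither did DUSP7 (-0.23 ± 0.09). DUSP7 was called in 3 of the 13 alternatives.

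Factors that bind the FOS or JUN promoter were higher in 5 of 12 tested cases and lower in 1 (median 0.10), and 3 were higher without FB23-2 replicate 1 or without either control library. This median was 0.04 and 0.18 without control replicates 1 and 2, and 0.05 with offsets for GC content and length. STAT3 (0.46 ± 0.04) and MEF2A (0.45 ± 0.05), which acts on the JUN promoter, rose. SRF, the serum response factor of the FOS promoter, fell (-0.29 ± 0.05, edgeR adjusted p = 7.72e-04). MRTFB (-0.05 ± 0.07) and ELK1 (0.03 ± 0.06), both SRF partners, did not pass. Among 9 turnover factors 2 were higher and 3 lower (median -0.20). ZFP36L1, which promotes decay of AU-rich RNA, rose (1.02 ± 0.07), and its relative ZFP36L2 fell (-0.51 ± 0.05). ITCH, a ubiquitin ligase for JUN proteins, rose (0.29 ± 0.04). FBXW7 (-0.22 ± 0.06) and TRIB2 (-0.33 ± 0.07), of the same list, fell, and the FBXW7 call was lost in 4 of the 13 alternatives. COP1 (-0.20 ± 0.08) and ZFP36 (0.00 ± 0.13) did not pass. COP1 was called in 1 of the 13 alternatives.

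Immediate-early genes outside AP-1 rose in 7 of 19 tested cases, beside 21.8% of all tested genes (median 0.44, or 0.22 without control replicate 2). SGK1, a kinase of ion transport and survival, had 192 and 185 counts with FB23-2 and 53 and 49 counts in control (1.57 ± 0.25). EGR1, a zinc finger factor induced along with FOS, stood at 9.97 and 10.8 CPM against 6.06 and 5.69 CPM (0.83 ± 0.15, edgeR adjusted p = 0.00155). IER5 (0.72 ± 0.07) and KLF10 (0.68 ± 0.10) also rose. IER2, at 51.4 and 46.2 CPM against 44.7 and 50.3 CPM, did not pass. GADD45B was the 1 called lower (-0.51 ± 0.17, edgeR adjusted p = 0.0403), and the call ended without FB23-2 replicate 2 (0.202) and without either control library (0.186 for replicate 1, 0.0711 for replicate 2). Its adjusted p in edgeR or DESeq2 ran from 0.0171 to 0.202 over the alternatives.

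Of 27 textbook AP-1 target genes, 14 were tested, with 6 higher and 3 lower. Their median was 0.11, or 0.07 without control replicate 1, and 1.02 at a minimum count of 50, where 9 were tested. CD69, an early activation marker, stood at 20.7 and 19.0 CPM with FB23-2 and 8.05 and 8.57 CPM in control (2.38-fold, edgeR adjusted p = 3.59e-05). IL2RA, the IL-2 receptor alpha chain, had 76 counts in each FB23-2 library and 8 and 20 counts in control (2.12 ± 0.38). TIMP1, a metalloproteinase inhibitor (1.78 ± 0.31), and PLAU, the urokinase gene (1.47 ± 0.28), also rose. VIM, the most abundant of the list, was at 0.01 ± 0.04 and did not pass. The T-cell cytokine genes IL2, IL3, IL4 and IFNG had 0 counts in all 4 libraries, which allows up to 0.0785 to 0.125 CPM in a library (3 counts, counting error only). Other cytokine genes of the list had too few counts to be tested: IL5 had 8 and 3 with FB23-2 and 0 and 1 in control, CSF2 had 2 and 4 against 0 and 0, and TNF had 11 and 8 against 4 and 2.

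The 3 target genes called lower, CCND1, MMP1 and MMP3, were low and were named after their values were seen. MMP3 had 53 and 47 counts in control and 0 in both FB23-2 libraries, at least 21.6-fold lower against a floor of 3 counts per library, and with this bound the list median was also 0.11. With FB23-2 replicate 2 or either control library left out, 1 of the list was called lower.

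**Figure D5:**
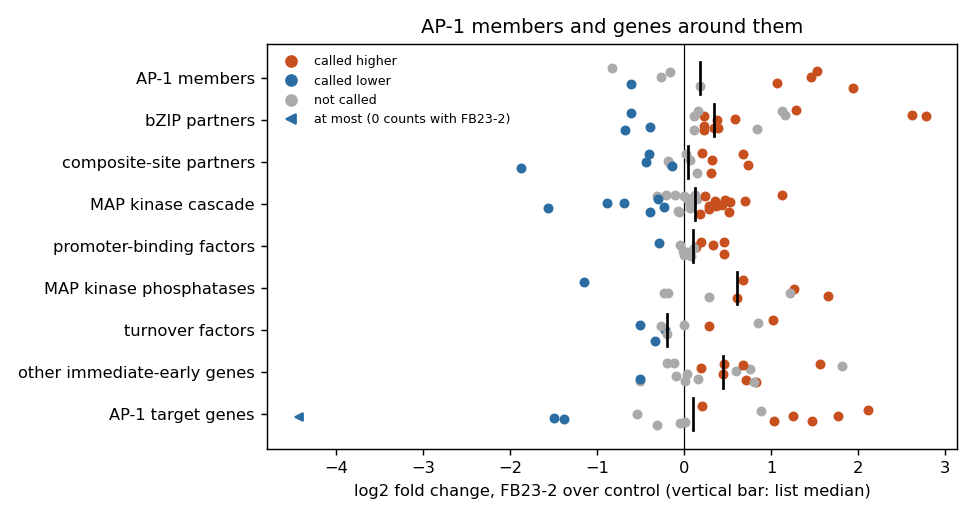
Log2 fold change of each tested gene in the AP-1 family and in the 8 other lists, coloured by call, with the list median as a vertical bar and MMP3 drawn at its bound. JUN, JUND, FOS and JDP2 form the right-hand group of the first row, and the largest value of the second row is that of DDIT3.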

How the data were processed

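The values are whole-number counts per Ensembl gene ID, deposited by the authors as 1 table with a column per library and no normalization. The submitters' processing notes list HISAT2 2.2.0, StringTie and hg38. Which annotation, strand setting and counting step were used is not given in the sources used here. Names came from a table of gene symbols, and coordinates, exon lengths and transcript GC content from GENCODE release 29 on the same build, which held 56591 of 64252 IDs. Promoter stretches came from RefSeq.

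With edgeR 4.0.16, 18817 genes passed filterByExpr at a minimum count of 10. Libraries were scaled by TMM and compared with the quasi-likelihood test in R 4.3.3, with Benjamini-Hochberg adjustment over all tested genes and a threshold of 0.05. The fit was run on simulated data in which few genes changed and all genes had the same spread. That setting differs from these data, so the run does not measure the error rate here. Chi-square per degree of freedom was 6.69 and 7.48 between replicates and 74.6 to 82.3 between groups, so no library was a copy. Replicates are independent biological samples per the labels' protocols.

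The members, the 8 lists and the naming rule were chosen with earlier results of these data known. By that rule each list gave up to 4 genes higher and 4 lower at a mean of 1 CPM or more, by size of change, and up to 2 abundant genes not called. The text names some of these, picked with their values known. The 13 alternatives used other scalings, filters, DESeq2 1.42.0, GC content and length offsets (mgcv 1.9.3, 17524 genes with values), the replicate block and each library left out. One of the marker lists is not reported here.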

Additional observations from a re-analysis of the deposited data

How the results depend on the processing

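JUN, JUND and JDP2 stayed higher and called, and BATF3 lower and called, under all 13 alternatives. FOS was called in 10 of them. The count of members called and at least 2-fold higher was 2 to 4 with 1 library left out. With 1 library left out, other immediate-early genes called lower numbered 0 to 1, AP-1 target genes called lower 1 to 2, promoter-binding factors called higher 3 to 4, composite-site partners called higher 3 to 5 and MAP kinase phosphatases called lower 1 to 2. Immediate-early genes called lower were also 0 with library size scaling, DESeq2, no filter, the legacy quasi-likelihood fit and the GC content and length correction. Target genes called lower were 1 with DESeq2, no filter and the replicate block with that correction, and 0 with a minimum count of 50. Promoter-binding factors called higher were 3 with the GC content and length correction, with or without the replicate block. MAP kinase phosphatases called lower were 2 with a minimum count of 50 and with the replicate block. The cause was not tested. The replicate block left 4 members higher and 1 lower, with 4238 genes higher and 4030 lower in all. The labels give both groups the same replicate numbers and do not say whether these mark pairs. The differences between replicates correlated by 0.0623 across genes. With a single difference per group, this value cannot decide whether the libraries were paired, and the main fit did not pair them. Of 53 members and named genes with a call, 0 changed sign, and of 20 without one, 9 did in at least 1 alternative. Of 104 list medians, 14 moved by more than the replicate spread. FOS, FOSB and FOSL1 had the fewest counts of the members in every library, and the part of depth in their results was not tested.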
